A study of Mus musculus with 8 samples.

Results

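The dystrophin-glycoprotein complex was followed here through 8 of its genes, *Dmd*, *Utrn*, *Sgca*, *Sgcb*, *Sgcd*, *Dag1*, *Sspn* and *Dtna*, by taking every array probe annotated with one of these symbols. That gave 17 probes of 8 genes, out of 23978 probes with a symbol and 16593 genes. RNA came from cardiomyocytes (CMs) of 3 groups and was read on Illumina MouseRef-8 v2.0 BeadChips, on which the intensity of beads carrying a probe stands for the level of a transcript. Hypertrophic ACMs (adult CMs, labelled TAC, 3 arrays) came from adult ventricles of CD1 mice with a hypertrophic heart 7 days after an operation. Embryonic CMs (labelled ECM, 2 arrays) came from fetal ventricles at E15.5, and normal ACMs (labelled ACM, 3 arrays) from ventricles of control adult mice, both on a CD1 background. No allele, transgene or drug was named for any group. No sham operation is given for the normal ACMs, so surgery and hypertrophy cannot be told apart. Nothing in the labels ties the arrays of a group to different animals, and the p-values below rest on the spread among these arrays alone, which may be technical.

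The complex links the actin cytoskeleton of a muscle cell to the basement membrane outside it. Dystrophin, the product of *Dmd*, binds actin at one end and β-dystroglycan at the other. α-Dystroglycan holds laminin, the sarcoglycans and sarcospan sit beside dystroglycan in the membrane, and dystrobrevin and the syntrophins bind dystrophin on the inside. Loss of dystrophin causes Duchenne muscular dystrophy with cardiomyopathy, and loss of a sarcoglycan causes limb-girdle muscular dystrophy, in which the heart can also be affected.

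The 3 sarcoglycan genes measured here are shown first by the DNA just upstream of their starts, since all 3 were lower in embryonic CMs than in normal ACMs. Each line is the 250 bases before the annotated start in RefSeq, on GRCm38.p6, read 5′ to 3′ along the gene, which lies on the minus strand in all 3 cases. Capitals mark the E-box CANNTG, a palindromic motif bound by basic helix-loop-helix factors. The windows are chr11:94976328-94976577 for *Sgca*, chr5:73647738-73647987 for *Sgcb* and chr11:47379326-47379575 for *Sgcd*.
Sgca: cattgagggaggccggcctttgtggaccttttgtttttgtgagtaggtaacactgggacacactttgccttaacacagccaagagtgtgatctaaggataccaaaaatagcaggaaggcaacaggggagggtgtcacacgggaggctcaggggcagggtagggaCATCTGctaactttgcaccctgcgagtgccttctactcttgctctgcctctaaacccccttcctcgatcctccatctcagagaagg
Sgcb: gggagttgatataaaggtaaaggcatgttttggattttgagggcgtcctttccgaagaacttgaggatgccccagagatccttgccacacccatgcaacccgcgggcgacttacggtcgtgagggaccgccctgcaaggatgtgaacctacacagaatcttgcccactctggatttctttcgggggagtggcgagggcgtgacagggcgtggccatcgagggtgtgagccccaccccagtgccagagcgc
Sgcd: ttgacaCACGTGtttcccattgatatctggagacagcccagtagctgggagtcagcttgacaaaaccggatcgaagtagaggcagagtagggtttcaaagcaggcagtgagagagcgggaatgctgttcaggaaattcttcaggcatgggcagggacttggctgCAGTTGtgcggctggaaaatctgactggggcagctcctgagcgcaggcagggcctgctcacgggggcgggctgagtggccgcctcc
*Sgca* held 1 E-box, *Sgcd* held 2 and *Sgcb* held 0. Of 32851 such windows, 66.2% held at least 1 and 31.8% at least 2, so these letters do not set the sarcoglycan genes apart. None of the 3 held a CArG box, the motif of serum response factor, which 1.47% of the windows held.

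Of the 17 probes, 13 probes of 7 genes were above background (detection p under 0.05) on at least 2 arrays and entered the test, among 13494 probes of 9803 genes. Values below are intensities after background correction and quantile normalization, with 16 added before the log, and differences are on the log2 scale. Probes above background made up 45.84% to 46.33% of all probes on hypertrophic arrays, 51.63% and 51.61% on embryonic arrays and 41.9% to 43.95% on normal arrays. Both comparisons with normal ACMs share the same 3 normal arrays, and fewer cells of a type cannot be told apart from less RNA per cell. Among the marker genes kept for the test, 5 of 11 for CMs were lower and 1 was higher in embryonic CMs than in normal ACMs. Markers of fibroblasts (8 of 10), endothelium (8 of 12) and red cells (4 of 4) were higher there. Of all tested probes, 23.7% were higher and 22.2% lower in that comparison. In hypertrophic ACMs, 8 of 10 fibroblast markers and 1 of 11 CM markers, *Myh7* for the fetal β-myosin heavy chain, were higher than in normal ACMs, as were 3.12% of all probes. Of these fibroblast calls, *Col1a2* and *Dcn* were each lost in 7 of 8 fits that left out an array, *Tcf21* in 5 and *Thy1* in 4. With each array scaled by its median in place of quantile normalization (median scaling), 7 of the 10 were higher. The summed normalized intensity of the CM markers ran over 168864 to 180434 in hypertrophic ACMs, 125897 to 133629 in embryonic CMs and 153346 to 168145 in normal ACMs. These sums weigh bright genes most. Between embryonic CMs and normal ACMs, *Myh6* differed by −1.95 and *Myh7* by 5.35, while *Actc1*, *Myl2*, *Myl3*, *Actn2* and *Mybpc3* did not pass. The part of these cell types in the results below was not tested.

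In embryonic CMs, 10 of the 13 member probes were lower than in normal ACMs and 0 were higher, with limma's adjusted p under 0.05. Over all tested probes, 22.2% were lower and 23.7% higher. The embryonic and normal arrays did not overlap on 11 of 13 member probes, as on 64.0% of all probes. The median difference of the member probes was −2.09, against −0.02 for all probes. Several of these probes read the same gene, and by the brightest probe of each of the 7 genes the median was −1.11. In hypertrophic ACMs, 0 of 13 member probes passed in either direction against normal ACMs, where 3.12% of all probes were higher and 1.3% lower. One probe, that of *Sspn*, had an unadjusted p under 0.05. The groups overlapped on all 13 member probes, and did not on 23.8% of all probes. The median member difference was 0.11, against −0.02 for all probes. Set against each other directly, 11 of 13 member probes were higher in hypertrophic ACMs than in embryonic CMs and 0 were lower, against 19.2% higher and 21.2% lower among all probes. The arrays did not overlap on 12 of 13, as on 64.3% of all probes. This last comparison is not independent of the others. Of its calls, that of the third *Dtna* probe, above background on 0 embryonic arrays, was lost in 4 of 8 fits that left out an array. That of the first *Dag1* probe was lost in 2. With median scaling the *Dag1* probes differed by 0.20 and 0.61 and did not pass.

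**Figure D1:**
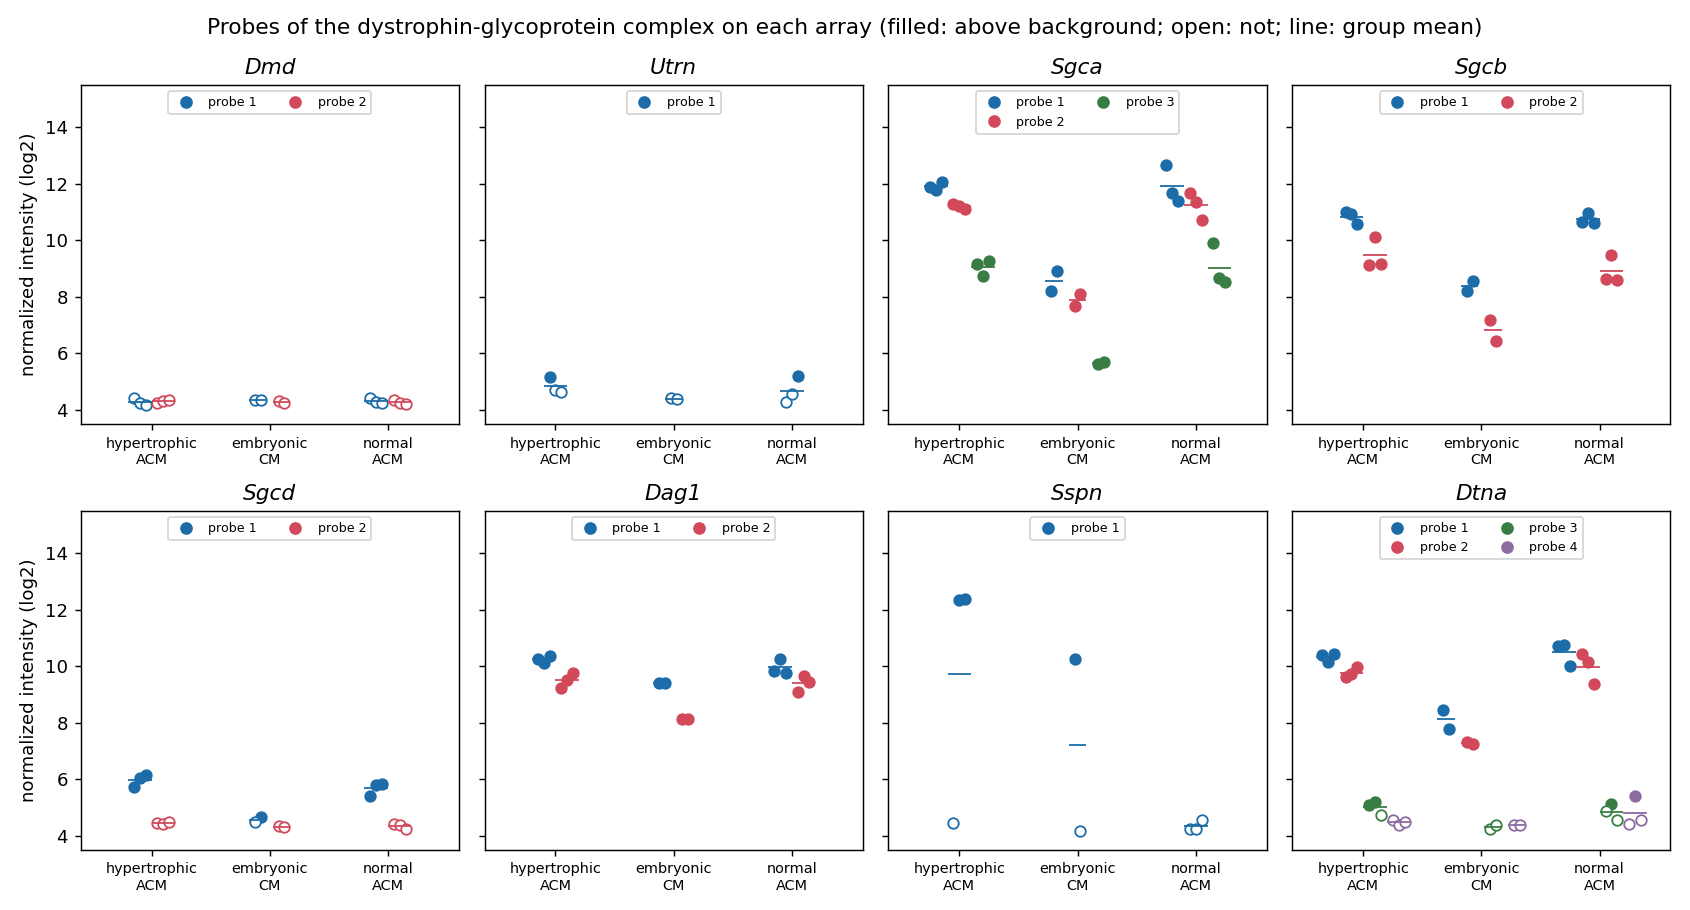
Normalized intensity (log2) of each of the 17 member probes on each array, with 1 panel per gene and hypertrophic ACMs, embryonic CMs and normal ACMs side by side. Filled points had a detection p under 0.05 and lines are group means; *Sgca*, *Sgcb* and the 2 bright *Dtna* probes sit lower in embryonic CMs, and *Sspn* splits into high and background arrays within a group.

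Dystrophin itself was not measured above background. The first *Dmd* probe had deposited intensities of 88.7, 90.2 and 80.6 in hypertrophic ACMs, 95.2 and 95.0 in embryonic CMs, and 92.5, 91.0 and 91.1 in normal ACMs. The second lay between 82.6 and 92.7 over all 8 arrays. The lowest detection p over the 8 arrays was 0.301 for the first probe and 0.385 for the second, so neither was detected on any array and no fold can be given. Both probes were annotated with the same *Dmd* transcript, and intensity at background says only that these probes gave no signal above that of the negative-control beads.

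Utrophin, the autosomal relative of dystrophin that can take its place at the membrane, was close to background. The *Utrn* probe read 35.7, 26.2 and 25.0 in hypertrophic ACMs, 21.6 and 20.6 in embryonic CMs, and 19.4, 23.6 and 36.7 in normal ACMs. It was above background on 1 hypertrophic and 1 normal array. The hypertrophic arrays overlapped with the normal ones, and the difference of 0.16 (95% interval −0.40 to 0.72) did not pass (limma, adjusted p = 0.788). The difference between embryonic CMs and normal ACMs was −0.28 (adjusted p = 0.448).

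α-Sarcoglycan, the subunit found in heart and skeletal muscle, had the widest drop among the members that passed. The first *Sgca* probe read 3763, 3524 and 4311 in hypertrophic ACMs, 298 and 488 in embryonic CMs, and 6477, 3265 and 2692 in normal ACMs. Both embryonic arrays lay below every adult array, and the hypertrophic arrays fell within the range of the normal ones. The embryonic level was 10.1-fold lower than the normal one, a log2 difference of −3.33 ± 0.36 (SE, 2 arrays against 3; limma, adjusted p = 7.44e-05). The other 2 *Sgca* probes gave the same size of difference, both −3.37, with adjusted p = 1.4e-05 and 8.55e-05. All 3 are annotated with 1 transcript, so they repeat a measurement on the same arrays and are not replicates. Between hypertrophic and normal ACMs the first probe differed by 0.00, with a 95% interval of −0.72 to 0.73, and the other probes by −0.05 and 0.03. The normal arrays spread more than the hypertrophic ones, with an SD of 0.15 on the log2 scale in hypertrophic ACMs and 0.67 in normal ACMs for the first probe.

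β-Sarcoglycan, which forms the core of the subcomplex with δ-sarcoglycan, followed the same order. The brighter *Sgcb* probe read 2028, 1970 and 1517 in hypertrophic ACMs, 295 and 381 in embryonic CMs, and 1621, 2004 and 1583 in normal ACMs. Its embryonic level was 5.15-fold lower, a difference of −2.36 ± 0.21 (SE; limma, adjusted p = 2.54e-05). The second *Sgcb* probe read 559, 1102 and 581 in hypertrophic ACMs, 144 and 87.5 in embryonic CMs, and 398, 712 and 388 in normal ACMs. It differed by −2.09 ± 0.38 between embryonic CMs and normal ACMs (adjusted p = 0.00167). Hypertrophic and normal ACMs overlapped on both probes, with differences of 0.08 (95% interval −0.35 to 0.51) and 0.57 (−0.20 to 1.34).

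δ-Sarcoglycan was dim on this array. Its detected probe read 53.2, 65.7 and 71.1 in hypertrophic ACMs, 22.1 and 25.5 in embryonic CMs, and 42.0, 55.7 and 57.0 in normal ACMs. Of the embryonic arrays 1 of 2 was above background, and the difference was −1.11 ± 0.21 (SE; limma, adjusted p = 0.00218). Hypertrophic ACMs were 0.30 above normal ACMs (95% interval −0.13 to 0.73, adjusted p = 0.432), with overlapping arrays. The second *Sgcd* probe was above background on none of the 8 arrays.

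Dystroglycan, the laminin receptor that is cut into an α and a β chain, was the member whose embryonic calls were lost under another scaling. The first *Dag1* probe read 1212, 1107 and 1319 in hypertrophic ACMs, 677 and 679 in embryonic CMs, and 915, 1228 and 870 in normal ACMs. The second read 598, 733 and 876 in hypertrophic ACMs, 277.5 and 277.4 in embryonic CMs, and 550, 800 and 698 in normal ACMs. After quantile normalization the embryonic arrays lay below all normal arrays on both probes, with differences of −0.55 ± 0.20 (SE; limma, adjusted p = 0.0476) and −1.28 ± 0.23 (adjusted p = 0.00135). The call of the first probe was lost in 7 of 8 fits that left out an array (highest adjusted p = 0.166). The deposited intensities of the first probe, before any normalization, were 1304.7 and 1062.2 in embryonic CMs, against 775.5, 1237.9 and 643.8 in normal ACMs, and did not separate. With each array scaled by its median in place of quantile normalization, the first probe was 0.14 higher in embryonic CMs (adjusted p = 0.698) and the second differed by −0.46 (adjusted p = 0.199), while the median of all probes moved to 0.46. Under that scaling *Sgca* still differed by −2.71, −2.68 and −2.59, *Sgcb* by −1.65 and −1.20 and *Sgcd* by −0.81, all with adjusted p under 0.05. Hypertrophic ACMs differed from normal ACMs by 0.29 (95% interval −0.12 to 0.69) and 0.11 (−0.35 to 0.56) on the 2 *Dag1* probes.

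**Figure D2:**
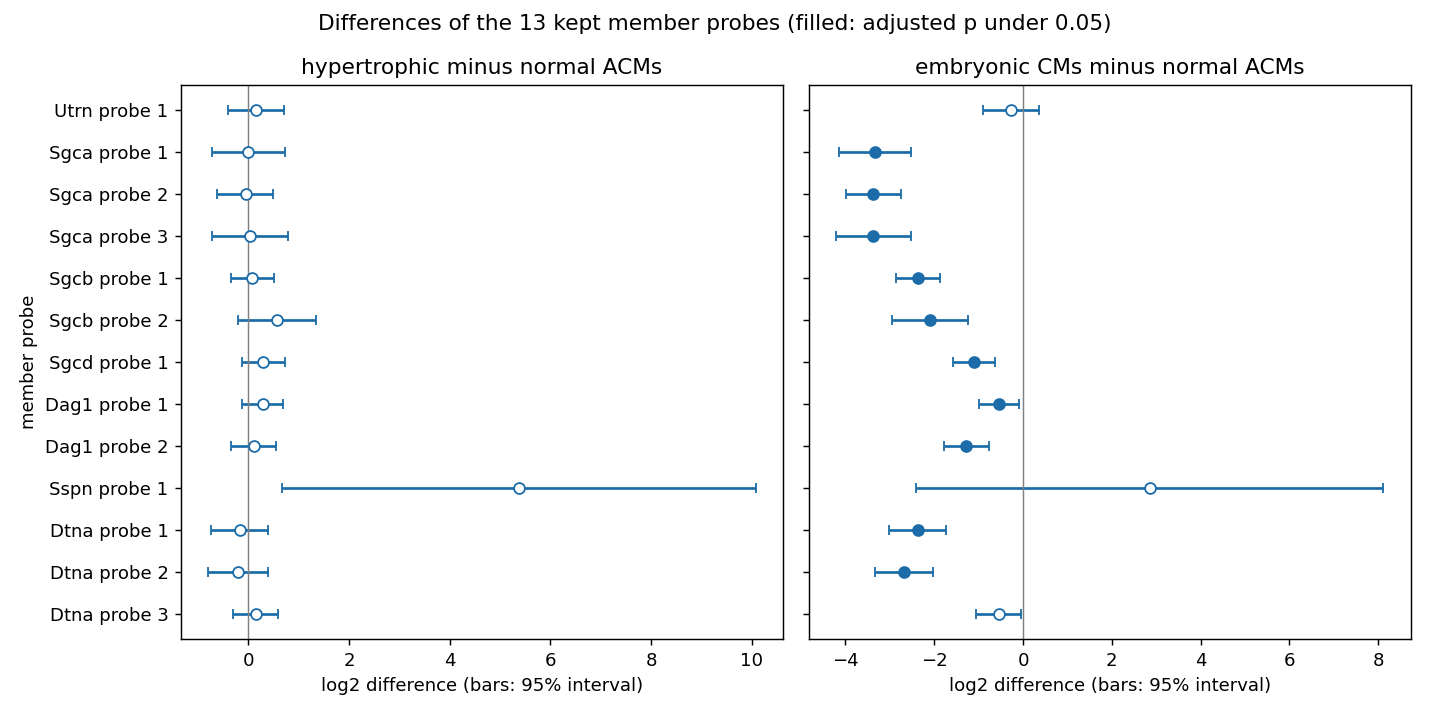
Log2 difference (x axis) of the 13 tested member probes (y axis) for hypertrophic minus normal ACMs on the left and embryonic CMs minus normal ACMs on the right, with 95% intervals from the limma fit. Filled points passed an adjusted p of 0.05; 0 pass on the left and 10 pass on the right, all of them below 0, and *Sspn* has by far the widest intervals.

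α-Dystrobrevin, which binds dystrophin and the syntrophins under the membrane, was read by 4 probes that fell into 2 bright and 2 dim ones. The brightest, annotated with another *Dtna* transcript than the other 3, read 1362, 1118 and 1387 in hypertrophic ACMs, 349 and 220.5 in embryonic CMs, and 1676, 1713 and 1036 in normal ACMs. The second read 795, 849 and 999 in hypertrophic ACMs, 161 and 154 in embryonic CMs, and 1387, 1120 and 654 in normal ACMs. Embryonic arrays lay below all adult arrays, 5.18-fold and 6.40-fold below normal ACMs, with differences of −2.37 ± 0.28 (SE; limma, adjusted p = 0.000128) and −2.68 ± 0.29 (adjusted p = 7.85e-05). The third probe was above background on 2 hypertrophic arrays, 0 embryonic arrays and 1 normal array, and its embryonic difference of −0.55 did not pass (adjusted p = 0.0712). The last was above background on a single normal array and was not tested. Hypertrophic ACMs differed from normal ACMs by −0.17 (95% interval −0.73 to 0.40) and −0.20 (−0.79 to 0.39) on the bright probes.

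Sarcospan, the small membrane protein that associates with the sarcoglycans, varied within groups in a way the other members did not. Its single probe had deposited intensities of 89.6, 4730.6 and 5095.6 in hypertrophic ACMs, 2187.2 and 81.2 in embryonic CMs, and 85.8, 89.1 and 98.1 in normal ACMs. It was at background on the first hypertrophic array, the second embryonic array and all 3 normal arrays, and bright on the other 3. After normalization the lowest and highest array differed by 7.91 on the log2 scale in hypertrophic ACMs and by 6.09 in embryonic CMs. In both groups this was the largest range of all 13494 probes, whose median range was 0.41 in hypertrophic ACMs and 0.20 in embryonic CMs. In normal ACMs the range of *Sspn* was 0.34, against a median of 0.49.

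With this spread *Sspn* did not pass either comparison. Hypertrophic ACMs were 5.37 ± 2.09 above normal ACMs (SE, 3 arrays each; 95% interval 0.67 to 10.07; limma, adjusted p = 0.199). The probe was below background on every normal array, so the lowest detectable signal stands in for normal ACMs. The mean of the hypertrophic arrays was 28.3-fold over it, with 2 of 3 arrays above background. As that mean includes an array at background, the fold is not a minimum. Embryonic CMs were 2.85 ± 2.33 above normal ACMs (95% interval −2.40 to 8.11; limma, adjusted p = 0.354). Their mean was 4.94-fold over the lowest detectable signal, with 1 of 2 arrays above background, and is not a minimum either. Without the first hypertrophic array the difference between hypertrophic and normal ACMs was 8.04 (adjusted p = 0.0236), and without the first embryonic array the difference between embryonic CMs and normal ACMs was −0.18.

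A member probe was called all-or-none in a group when some arrays of the group were above background, others were not, and the log2 range was over 1. *Sspn* met this in hypertrophic ACMs and in embryonic CMs, as did 2.53% and 0.0445% of all tested probes. Among the 13 tested probes no other member met it in any group, and 6.33% of all tested probes met it in normal ACMs. The untested *Dtna* probe met it narrowly in normal ACMs, with deposited intensities of 92.7, 112.5 and 98.2. With a range over 4, the count over all tested probes was 4 in hypertrophic ACMs (0.0296%), 1 in embryonic CMs (0.00741%) and 16 in normal ACMs (0.119%), and the embryonic one was *Sspn*. In all, 17 tested probes, *Sspn* included, were detected on the same 3 arrays, and only *Sspn* had a gap over 1 between its detected and undetected arrays. Its gap was 5.68. The single other tested probe that split a group with a gap over 4 was that of *Tmem14c*, named after its values were seen, whose gap was 5.57 and which was bright on a different set of arrays.

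No gene flanking *Sspn* on its chromosome was detected on the same set of arrays as *Sspn*. Of the 12 nearest genes with a symbol on the array, 6 on each side, *Etfrf1* and *Med21* were the brightest. *Etfrf1* had deposited intensities of 2323.6, 2470.6 and 2625.8 in hypertrophic ACMs, 1457.3 and 941.0 in embryonic CMs, and 2474.2, 1915.7 and 1827.5 in normal ACMs. The gene next to *Sspn* on one side, *Itpr2*, an inositol trisphosphate receptor, had deposited intensities of 96.9, 114.1 and 114.1 in hypertrophic ACMs, 153.0 and 149.0 in embryonic CMs, and 115.9, 120.6 and 128.5 in normal ACMs by its brightest probe. The neighbour on the other side, *Bhlhe41*, was below background on all 8 arrays, as were *Rassf8* and *Arntl2*, so these could show no split. *Lrmp*, the farthest of the 6 on the side of *Bhlhe41*, was at background on the first hypertrophic array (89.6) and above it on the other 2 (117.4 and 109.9). It was also above background on every embryonic and normal array.

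**Figure D3:**
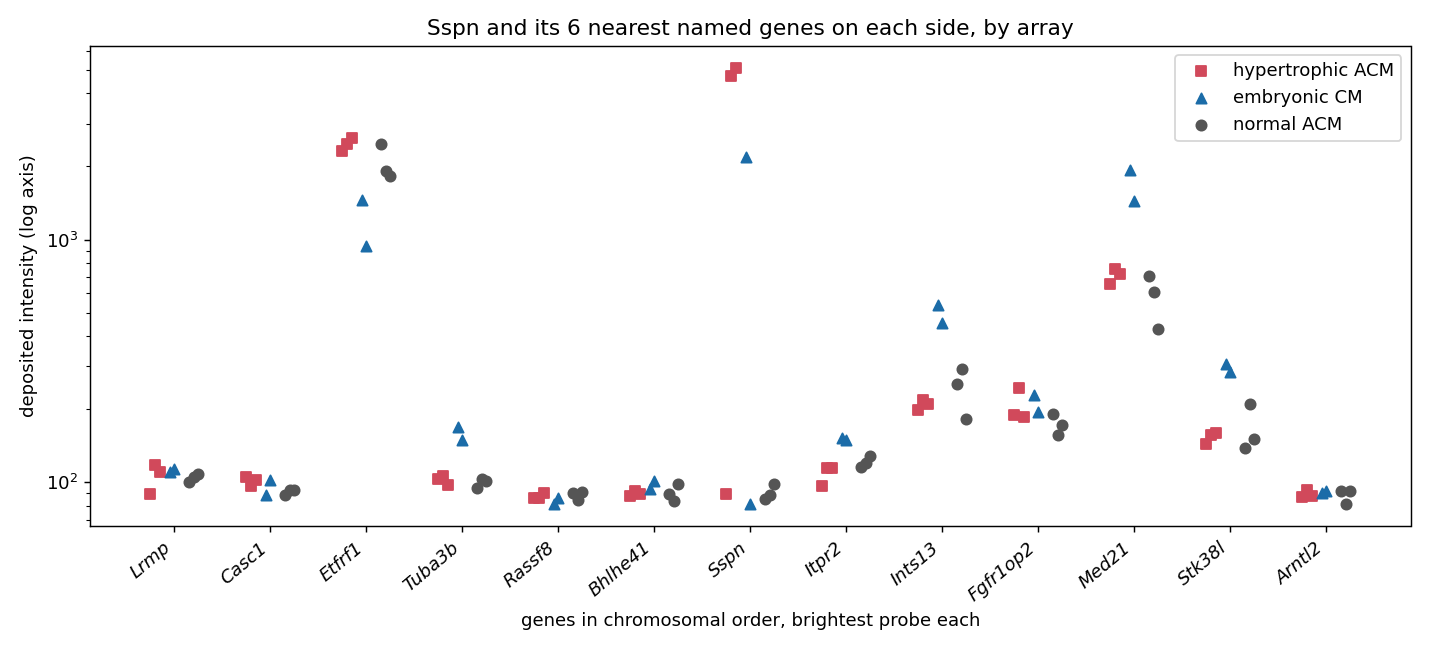
Deposited intensity (log axis) on each array for *Sspn* and the 6 nearest genes with a symbol on each side, in chromosomal order, with the brightest probe of each gene. *Sspn* reads 4730.6 and 5095.6 on 2 hypertrophic arrays, 2187.2 on 1 embryonic array and 81.2 to 98.1 on the other 5, while no neighbour shows a gap as wide.

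The gene profiles most like those of the members were found over the 8 arrays by the root mean square difference of mean-centred log2 values, as a description with no test. For *Sgca* the closest was *Tcap*, the titin cap protein of the Z-disc, at 0.32, where *Sgca* itself varied with a root mean square of 1.49. For *Sgcb* it was *Hspb6*, a small heat shock protein, at 0.14 of 1.06. For *Dtna* it was *Dcxr*, a carbonyl reductase, at 0.16 of 1.03. *Sgcd* was closest to *Cd151*, a tetraspanin, at 0.12 of 0.59, and *Dag1* to *Mafg*, a small Maf factor, at 0.09 of 0.36. *Sspn* had no near match: *Mfap5*, a microfibril protein and one of the fibroblast markers, was closest at 2.51 of 3.60, followed by *Timp1* and *Col3a1*. *Mfap5* was above background on all 8 arrays, with deposited intensities of 654.7, 1303.5 and 1327.6 in hypertrophic ACMs, 443.0 and 273.6 in embryonic CMs, and 99.9, 131.4 and 109.4 in normal ACMs, so it did not split as *Sspn* did.

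The other subunits of the complex were mostly dim or undetected. Of 11 listed genes 9 had a probe, and *Sgce*, *Sgcz*, *Sntg1* and *Sntg2* were detected on no array. Of the 5 tested, 0 passed in hypertrophic ACMs, and in embryonic CMs 2 were higher and 1 was lower than in normal ACMs. Among all probes, 3.12% were higher and 1.3% lower in hypertrophic ACMs, and 23.7% and 22.2% in embryonic CMs. *Dtnb*, β-dystrobrevin, had deposited intensities of 192.8 and 198.4 in embryonic CMs, against 92.4, 106.9 and 96.4 in normal ACMs, a difference of 1.44 ± 0.24 (SE; limma, adjusted p = 0.000923), where the α-dystrobrevin probes ran the other way. *Sntb2*, a syntrophin, was below background on all normal arrays and at least 1.5-fold higher in embryonic CMs (difference 0.69, adjusted p = 0.0135), a call lost without either embryonic array (highest adjusted p = 0.145). *Cav3*, the muscle caveolin, was lower in embryonic CMs, at −0.84 (adjusted p = 0.0101), a call that was lost with median scaling, at 0.07.

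Calls among the enzymes that build the laminin-binding sugar of α-dystroglycan depended on the scaling. Of 13 tested, 6 were lower and 1 was higher in embryonic CMs than in normal ACMs after quantile normalization, beside 22.2% and 23.7% of all probes. With median scaling 0 were lower and 3 higher, beside 1491 and 5951 of all 13494 probes, while the median of all probes moved to 0.46. The call in both was *Dpm2*. *Dpm2*, a subunit of dolichol-phosphate mannose synthase, differed by 0.97 (limma, adjusted p = 0.00152), and *Pomgnt2*, *B4gat1* and *Dolk* by −1.06, −1.04 and −0.77. With median scaling the last 3 differed by −0.27, −0.41 and −0.08 and did not pass. In hypertrophic ACMs 0 of 13 passed, where 3.12% of all probes were higher and 1.3% lower.

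The list of ligands of dystroglycan or proteins that bind the complex from outside had 8 tested genes. In embryonic CMs 5 were higher and 2 lower than in normal ACMs, beside 23.7% and 22.2% of all probes. With median scaling 5 were higher and 1 lower, beside 5951 and 1491 of all 13494 probes, while the median of all probes moved to 0.46. *Lamc1*, the laminin γ1 chain, had deposited intensities of 4243.2 and 3560.3 in embryonic CMs, against 348.9, 423.7 and 320.6 in normal ACMs, a difference of 2.80 ± 0.25 (SE; limma, adjusted p = 2.18e-05). *Agrn*, the proteoglycan agrin, was higher by 2.71 and *Bgn*, biglycan, by 2.48. *Lamb2*, the laminin β2 chain, was lower, at −2.59 ± 0.23 (adjusted p = 2.23e-05). In hypertrophic ACMs 2 of 8 were higher than in normal ACMs and 0 lower, beside 3.12% and 1.3% of all probes. *Bgn* had deposited intensities of 2061.9, 4275.3 and 3577.2 in hypertrophic ACMs, against 235.7, 649.7 and 387.1 in normal ACMs, a difference of 3.08 ± 0.35 (SE; limma, adjusted p = 0.00178). *Lamc1* differed by 1.26 (adjusted p = 0.0153), a call that was lost when the second or the third hypertrophic array was left out (highest adjusted p = 0.0673). *Agrn* and *Lamb2* did not pass in hypertrophic ACMs, at 0.13 and 0.15. The fibroblast markers, 8 of 10 higher in each comparison with normal ACMs, had a summed normalized intensity of 7086 to 11582 in hypertrophic ACMs, 5842 to 6430 in embryonic CMs and 1944 to 3410 in normal ACMs.

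Of 21 tested partners and membrane repair genes, 6 were higher and 6 lower in embryonic CMs than in normal ACMs, where 23.7% of all probes were higher and 22.2% lower. With median scaling the counts were 10 higher and 4 lower, beside 5951 and 1491 of all 13494 probes, while the median of all probes moved to 0.46. *Trim72*, which encodes the membrane repair protein MG53, had deposited intensities of 279.1 and 188.2 in embryonic CMs, against 2222.0, 2782.3 and 2507.8 in normal ACMs, a difference of −5.07 ± 0.22 (SE; limma, adjusted p = 4.33e-07). *Ank2*, an ankyrin that anchors membrane proteins, differed by −2.16. *Anxa2*, a calcium-dependent membrane-binding annexin, differed by 3.91. *Krt19*, a keratin below background on all normal arrays, differed by 1.18, a fold of at least 1.46. In hypertrophic ACMs 4 of 21 were higher and 0 lower, beside 3.12% and 1.3% of all probes. *Anxa2* differed by 2.70 (adjusted p = 0.000489), *Synm*, the intermediate filament protein synemin, by 1.53 (adjusted p = 0.00269) and *Des*, desmin, by 1.06 (adjusted p = 0.0115). *Des* lost the call without the second hypertrophic array (adjusted p = 0.0594). *Dysf*, the repair protein dysferlin, differed by 1.00 (adjusted p = 0.0416) and lost the call in 7 of 8 fits that left out an array and with median scaling.

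The integrin system, the other link from the CM to laminin, had 14 tested genes. In embryonic CMs 6 were higher and 2 lower than in normal ACMs, beside the same 23.7% and 22.2% of all probes. With median scaling 10 were higher and 2 lower, beside 5951 and 1491 of all 13494 probes. The median of all probes moved to 0.46, so the shares above do not apply there. The 2 lower ones were the muscle laminin receptor subunit *Itga7*, at −5.19 ± 0.21 (SE; limma, adjusted p = 3.14e-07), and *Lims2*, an adaptor of integrin-linked kinase, at −4.34 ± 0.20 (adjusted p = 6.16e-07). *Zyx*, zyxin, differed by 2.64 and *Ilk*, integrin-linked kinase, by 1.76. In hypertrophic ACMs 4 were higher and 0 lower, beside 3.12% and 1.3% of all probes. *Zyx* differed by 1.15 (adjusted p = 0.00986) and passed in all 8 fits that left out an array, with values from 1.00 to 1.27. *Itgb1*, *Itga5* and *Lims2* differed by 1.16, 0.89 and 0.80, and lost the call in 4, 4 and 7 of 8 such fits. *Lims2* also lost it with median scaling (adjusted p = 0.0585).

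**Figure D4:**
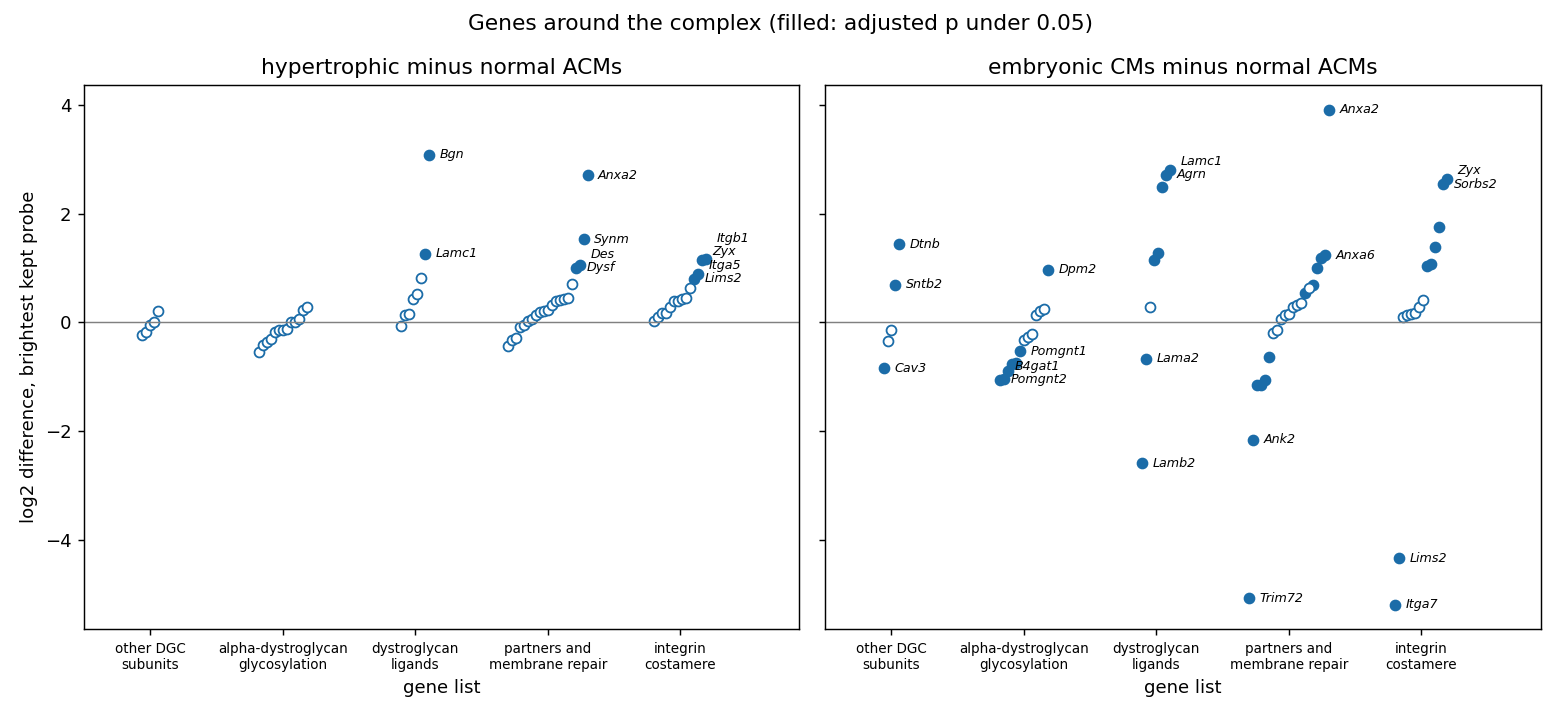
Log2 differences (y axis) of the tested genes of 5 lists around the complex, for hypertrophic minus normal ACMs on the left and embryonic CMs minus normal ACMs on the right, with the brightest probe of each gene and genes ordered by value within a list. Filled points passed an adjusted p of 0.05; no other subunit and no glycosylation enzyme is filled on the left, and *Trim72*, *Itga7* and *Lims2* lie lowest on the right.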

How the data were processed

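Total RNA of 8 CM samples had been labelled and hybridized to 1 array each. Per the file headers and the values, the authors deposited a mean bead intensity per probe without normalization, and beside it a detection p-value that sets the probe against the negative controls of its array. The authors also deposited a table of intensity values after background subtraction and quantile normalization, whose settings are not given in the sources used here. The submitters' processing notes name GenomeStudio 2011. In R 4.3.3, limma 3.58.1 took the unnormalized intensities through neqc with an offset of 16, which estimates background from the detection p-values and then quantile-normalizes. Probes needed a detection p under 0.05 on 2 or more of the 8 arrays. Of 25697 probes, 23978 had 1 gene symbol and 1719 had none and were left out. One linear model (lmFit, contrasts.fit, eBayes) held the 3 groups, with Benjamini-Hochberg adjustment across the 13494 kept probes. The methods name no test for these arrays. Where no array of a group detected a probe and every array of the other group did, the fold is a bound, from the lowest detected signal of each array. The fit was also run on simulated arrays, with changes put only into probes above background on all 8 arrays. The simulated noise had the same spread in every group, so that run does not cover dim or all-or-none probes. Python 3.11.15 with pandas 2.3.3 made the tables, and matplotlib 3.10.9 the plots.

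The members and lists were chosen with earlier results of these data known. All member probes are named, with up to 4 genes of each pathway list per comparison by the smallest p among those that passed, by the brightest kept probe. The genes most like a member follow a rule set in the same way, and the neighbours of *Sspn* and the count of probes sharing its pattern were added after its values were seen. Cell type lists were cardiomyocyte, fibroblast, endothelial, smooth muscle and pericyte, leukocyte, epicardial and erythroid. Alternatives were median scaling, no background correction, an offset of 50, the authors' normalized values, other filters, 1 probe per gene, a fit of 2 groups, a trended variance, the replicate number as a block and leaving out each array. The number of arrays limits the precision. Probe sequences were not used here.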

Additional observations from a re-analysis of the deposited data

How the results depend on the processing

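The counts of member probes that passed were 10 lower in embryonic CMs than in normal ACMs and 11 higher in hypertrophic ACMs than in embryonic CMs. With median scaling both counts were 9, where 1491 and 1391 of all 13494 probes passed in those directions. With the brightest probe per gene, where 7 genes were tested, each count was 5. Leaving out each array in turn gave 9 to 11 and 9 to 11. Between hypertrophic and normal ACMs the count higher was 0 to 1 over these fits, the 1 being *Sspn* without the first hypertrophic array, and the count lower was 0. Of 669 values of single member probes under an alternative, 626 kept their direction and their side of the threshold, 21 lost the call, 5 gained one and 17 changed sign. Other filters, 1 probe per gene, the fit of 2 groups and the trended variance used the same normalized values, so no direction could change there. The authors' normalized values were close for bright probes, such as 3747.0 against 3763.1 for the first *Sgca* probe on the first hypertrophic array. For dim probes they were not, such as −11.4 against 17.8 for *Sspn* on the second embryonic array. Authors' values under 16 were set to 16 before the log.

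Sign changes between hypertrophic and normal ACMs could only fall on differences that had not passed, as no member probe passed there. *Utrn* was at −0.03 with the authors' normalized values and ran over −0.04 to 0.26 when an array was left out. The *Sgca* probes ran over −0.26 to 0.37, −0.32 to 0.16 and −0.22 to 0.46, the second *Dag1* probe over −0.04 to 0.25 and the second *Dtna* probe over −0.51 to 0.04. *Sspn* ran over −0.18 to 5.83 between embryonic CMs and normal ACMs and over −0.47 to 5.49 between hypertrophic ACMs and embryonic CMs. It passed there without the first hypertrophic array, at 5.17 (limma, adjusted p = 0.0335). The first *Dag1* probe had passed between embryonic CMs and normal ACMs, at −0.55, and changed sign with median scaling, to 0.14. It also lost its call in 7 of 8 fits that left out an array (highest adjusted p = 0.166). The third *Dtna* probe gained a call between embryonic CMs and normal ACMs with median scaling, with the replicate block and without the third normal array, at −0.66, −0.70 and −0.73. The cause was not tested.

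Same-numbered arrays of different groups had deviations from their group means that correlated at −0.081 to 0.136. With 2 or 3 arrays in a group, these values cannot decide whether same-numbered samples were paired. With the replicate number as a block, 10 member probes were lower in embryonic CMs than in normal ACMs, 11 were higher in hypertrophic ACMs than in embryonic CMs, and 0 differed between hypertrophic and normal ACMs. The first *Dag1* probe lost its call under the block, at −0.57.

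Over all tested probes, median scaling turned the split between embryonic CMs and normal ACMs to 5951 higher and 1491 lower, against 3196 and 2989, and that between hypertrophic ACMs and embryonic CMs to 1391 higher and 5598 lower, against 2597 and 2864. Between hypertrophic and normal ACMs, 421 were higher and 175 lower, and these ran over 161 to 451 and 45 to 220 when an array was left out. The authors' normalized values gave 273 higher there, the fit of 2 groups 249 higher and 67 lower, median scaling 91 lower and the block 110 lower. Probes at background, among them *Dmd*, have no level that these arrays could rank.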

Other observations

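The remaining cell type lists were measured in the same fit. There, 23.7% of all probes were higher and 22.2% lower in embryonic CMs than in normal ACMs. For hypertrophic ACMs these shares were 3.12% and 1.3%. Of 6 tested leukocyte markers, 0 passed in either comparison with normal ACMs, and their summed normalized intensity ran over 1219 to 1691 in hypertrophic ACMs, 536 to 730 in embryonic CMs and 285 to 2377 in normal ACMs, so the normal arrays differed most among themselves. Of 11 smooth muscle and pericyte markers, 0 were higher and 2 lower in hypertrophic ACMs, and 4 were higher and 3 lower in embryonic CMs, than in normal ACMs. Of 6 epicardial markers, 0 passed in hypertrophic ACMs and 3 were higher in embryonic CMs. Of 12 endothelial and 4 erythroid markers, 1 and 0 were higher in hypertrophic ACMs than in normal ACMs.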
